A study of Mus musculus with 8 samples.

Results

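Transcripts of the translation initiation factors, the proteins that start protein synthesis, were described in islets of male C57BL/6J mice. Their genes were taken as every row whose gene symbol starts with Eif1 to Eif6, leaving out the kinases of eIF2, the binding proteins and transporter of eIF4E, Y-linked copies and pseudogenes. This gave 46 of 35596 genes in the table, and 45 of them had a mean of at least 1 TPM over all libraries and were tested. TPM, the unit of the table, is a gene's length-adjusted abundance as a share of the total of its library. The exception, Eif4e1b, a cap-binding protein gene known from the egg, was listed at 0 in all 8 libraries. Just inside the limit on low values lay Eif5a2 at a mean of 1.04 TPM and Eif4g3 at 1.60 TPM.

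RNA sequencing of polyadenylated RNA compared 4 libraries labelled obese with 4 labelled weight-cycled. Obese mice ate low-fat food (10%) for 9 weeks before 18 weeks of high-fat food (60%). Weight-cycled mice ate 60%, 10% and again 60% fat food in blocks of 9 weeks. All mice were thus of the same strain and sex and ended on 60% fat. The final high-fat period lasted 18 weeks in one group and 9 in the other, which cannot be told apart from the change of diet in between. No lean group was analysed here. Islets were released by collagenase P and hand picked. Ages are not given, and neither is whether a library came from 1 animal. The p-values therefore cover only library-to-library spread, part of which may be technical.

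Initiation factors bring the initiator transfer RNA, carried by eIF2 with GTP, and the messenger RNA, held by the cap-binding assembly eIF4F, to the small ribosomal subunit, where eIF3 joins them and eIF1 and eIF1A guard the choice of start codon. The exchange factor eIF2B reloads eIF2 with GTP, and phosphorylated eIF2 blocks it, which is how stress lowers protein synthesis. Beta cells devote much of their translation to proinsulin and raise it within minutes of a glucose stimulus, largely without new mRNA.

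The libraries differed in ways that touch every result below. The labelled tissue held, as 8 beta-cell marker genes together took 784923 to 812606 TPM of each library, nearly all of it Ins1, Ins2 and Iapp. Of the other 5, Slc2a2 (60.8 to 91.5 against 25.5 to 44.8 TPM), Mafa (26.1 to 40.1 against 9.42 to 22.6), Ucn3 (125 to 155 against 67.0 to 115) and Nkx6-1 (30.6 to 37.7 against 16.8 to 29.2) lay lower in every weight-cycled library than in any obese one, and Pdx1 overlapped. Of markers for other cells, 1 of 10 acinar, 0 of 5 endothelial, 3 of 5 duct, 3 of 6 macrophage and 5 of 6 stromal genes stayed below 1 TPM in every library, and none was at 0 in all. Summed acinar markers lay at 2416 to 4428 TPM (obese) and 2960 to 7157 TPM (weight-cycled), alpha-cell markers at 4527 to 12271 and 3015 to 8467 TPM. Endothelial markers gave 44.3 to 71.4 and 24.3 to 50.3 TPM, duct markers 34.7 to 44.0 and 31.6 to 50.0 TPM, macrophage markers 16.0 to 24.1 and 9.61 to 16.4 TPM, and stromal markers 2.999 to 4.90 and 2.21 to 4.50 TPM. The part of these markers and cells in the results was not tested. Weight-cycled replicate 1 stood apart from its group: it held the highest acinar sum, and its deviations from gene means rose with transcript length (Spearman's rho 0.345 across 8123 genes) as in the obese libraries (0.184 to 0.375), whereas they fell in weight-cycled replicates 2 to 4 (-0.400 to -0.283). Results are therefore also given without it. Most genes lay lower in weight-cycled TPM, with a median log2 fold change of -0.26 over the 8127 tested genes. Median-of-ratios scaling, which sets the typical gene equal between libraries, moved that median to -0.0090. Weight-cycled replicate 1 was the highest of its group for 28 of the 45 factors, beside 63.7% of all tested genes. Replicates 2 to 4 were all below every obese library for 25 factors and all above for 2, beside 55.1% and 3.64% of tested genes.

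Of the 45 measured initiation factor genes, 6 were lower in weight-cycled islets on TPM as deposited, 0 were higher and 39 did not pass (limma, Benjamini-Hochberg adjusted p at 0.05 over all tested genes). The 6 were Eif4e3, Eif4h, Eif1b, Eif3f, Eif2s3x and Eif2b3, each from a different complex, with log2 fold changes of -0.41 to -0.31. That is 13.3% of the factors, where 23.9% of all tested genes were lower and 1.21% higher. At an unadjusted p under 0.05, 21 were lower and 0 higher, against 46.5% and 2.63% of all tested genes. Their median log2 fold change was -0.21, close to the -0.26 of all tested genes, and 40 of 45 lay below 0, where 85.5% of tested genes did. Groups did not overlap for 7 factors, all lower, where 21.1% of tested genes were lower and 1.3% higher without overlap. These were Eif1, Eif1b, Eif2b3, Eif3e, Eif4h, Eif4e3 and Eif5a2. In bulk RNA, fewer cells of a type and less RNA per cell cannot be told apart.

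The direction of the factors depended on how the libraries were put on a common scale. After median-of-ratios scaling the median became 0.081, and 30 of 45 lay above 0, beside 3932 of the 8127 tested genes. By call, 0 factors were lower and 0 higher, where 0.566% and 1.24% of tested genes were (smallest limma adjusted p of a factor = 0.0738). At an unadjusted p under 0.05, 8 (17.8%) were then higher and 0 lower, beside 16.5% and 13.9% of tested genes. Taking out the relation with transcript length in each library put the median at 0.017 and also left 0 lower and 0 higher, where 1.53% and 1.78% of tested genes were, with 1 lower and 6 (13.3%) higher at an unadjusted p under 0.05, beside 14.5% and 12.8% of tested genes. Over TPM, median-of-ratios scaling, quantile scaling and length removal, 13 factors kept a fold change below 0, among them all of those called except Eif1b. The 5 that kept one above 0 were Eif2b2, Eif3h, Eif3i, Eif3m and Eif4e2. The same counts over all tested genes were not made.

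Single libraries also decided the calls, of all genes as of the factors. Without weight-cycled replicate 1, TPM gave 22 lower factors and 2 higher, against 54.4% and 3.35% of tested genes, and the 6 genes lay at -0.53 to -0.30. Scaled values without that library gave 6 lower (13.3%) and 11 higher (24.4%), against 17.9% and 20.0%, and values with length removed 4 (8.89%) and 7 (15.6%), against 13.5% and 12.8%. Those shares lie near the ones of all tested genes. Called without that library were Eif3a, Eif3c, Eif4b and Eif4g2 lower and Eif2s1, Eif3h, Eif3i, Eif3m, Eif4e2, Eif5a and Eif2d higher both after scaling and after length removal. With any of obese replicates 1 to 3 or weight-cycled replicates 2 to 4 left out, limma called 0 factors on TPM, with 8 to 16 lower and 0 higher at an unadjusted p under 0.05. The same fits called 0 to 49 of all tested genes lower and had 31.4% to 40.6% of them lower at an unadjusted p under 0.05. Without the filter on low values it called 0 of 19482 genes and thus 0 factors, with 19 factors lower and 0 higher at an unadjusted p under 0.05, beside 27.1% and 2.07% of all genes.

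**Figure D1:**
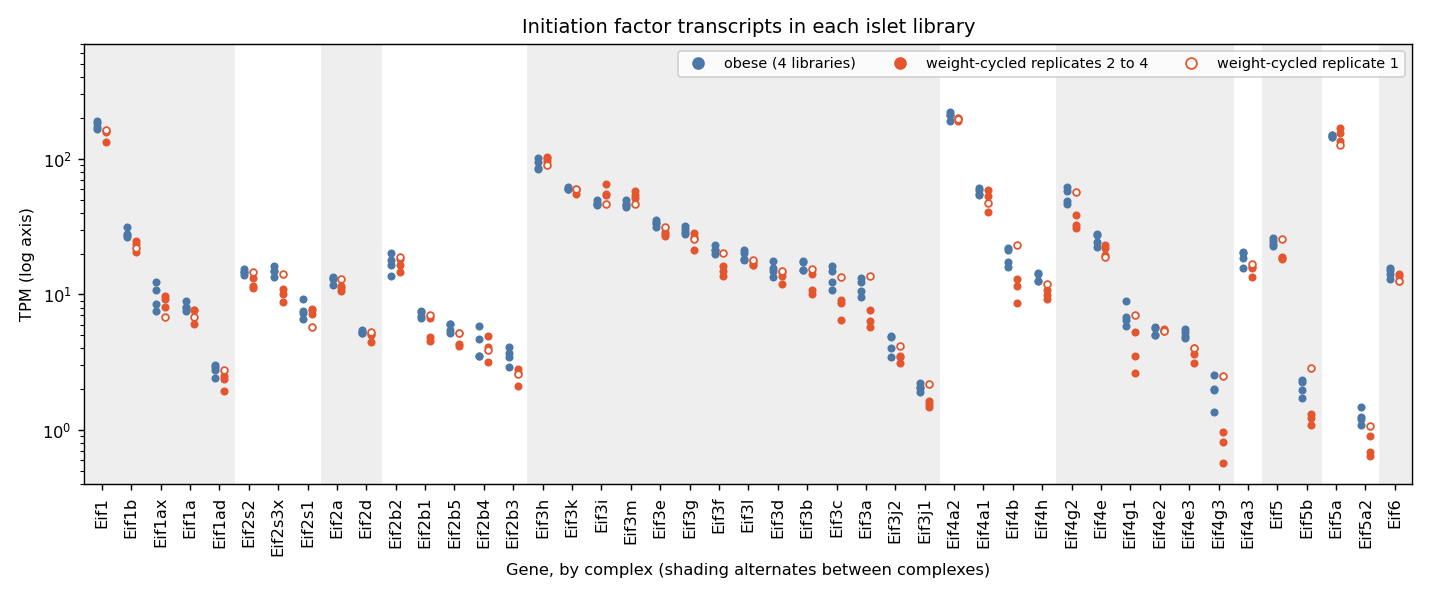
TPM of the 45 tested initiation factor genes on a log axis, grouped by complex and ordered by mean within each; points are libraries, with weight-cycled replicate 1 as open circles. Levels span from Eif4a2 at a mean of 202 TPM to Eif5a2 at 1.04 TPM, far more than any difference between the groups.

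Transcript levels differed by 194 times among the 45 genes, with a median of 13.6 TPM. Because TPM is per transcript length, levels of different genes can be set side by side. Eif4a2 led at a mean of 202 TPM, followed by Eif1 at 165 TPM and Eif5a at 147 TPM. Eif4a2 exceeded Eif1 within every library. Eif1 exceeded Eif5a in every obese library, but Eif5a exceeded Eif1 in weight-cycled replicates 2 and 4, so their order there is not beyond the spread. Next came the eIF3 subunits Eif3h and Eif3k at 94.4 and 59.5 TPM. All 46 genes together summed to 1336 ± 69.6 TPM (obese) and 1219 ± 55.9 TPM (weight-cycled; SD, n = 4 each), with overlap.

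**Figure D2:**
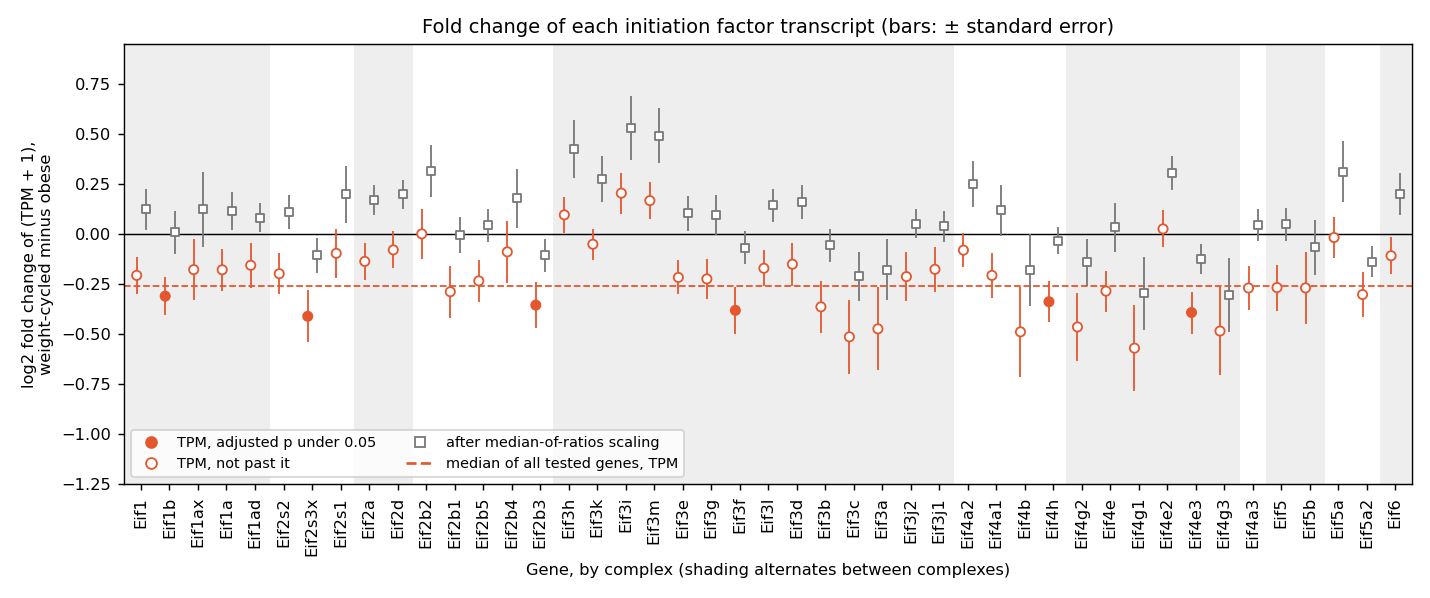
Log2 fold change with its standard error for each of the 45 genes, weight-cycled minus obese, on TPM as deposited (circles, filled where limma's adjusted p was under 0.05) and after median-of-ratios scaling (squares). The 6 filled circles lie at -0.41 to -0.31, near the dashed median of all tested genes at -0.26, and their squares lie at -0.12 to 0.0088.

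Promoter sequences from RefSeq (GRCm38.p6, 250 bases before to 50 after a start) were found for 36 of the 46 genes, and were searched on both strands. The E-box CACGTG, the letters that MYC and related factors bind, occurred for 10 of 36 initiation factor genes (27.8%: Eif1b, Eif3a, Eif3f, Eif3k, Eif4a1, Eif4e, Eif4g1, Eif4h, Eif5a and Eif5a2), against 12.4% of 6421 tested genes and 8.09% of all 27025 genes in the promoter table. A gene with several listed starts has more chances of a match, and 11.1% of these factors had several against 20.9% of tested genes. Of the 6 genes called lower, 4 had a promoter and 3 of these held an E-box, Eif1b, Eif3f and Eif4h. The share with an E-box among all genes called lower was not counted, and a link between the E-box and the calls was not tested. Eif4e, known for its MYC sites, held 2 before the second of its listed starts. These stretches are shown, 5′ to 3′ on the strand of the gene, with the E-box in capitals, because those genes carry the calls and the cap-binding ratio.
Eif1b, chr9:120492570-120492599, plus strand: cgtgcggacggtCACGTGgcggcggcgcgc
Eif3f, chr7:108934335-108934364, plus strand: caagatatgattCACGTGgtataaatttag
Eif4h, chr5:134639488-134639517, minus strand: cggccgccgcacCACGTGggccgcagagcg
Eif4e, chr3:138527028-138527057, plus strand: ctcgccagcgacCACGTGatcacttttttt
Eif4e, chr3:138527192-138527221, plus strand: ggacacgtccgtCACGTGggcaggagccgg

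The E-box began 24 bases before the start in Eif1b, 68 in Eif3f, 96 in Eif4h, and 228 and 64 in Eif4e. GGGCGG, the GC box, was found for 77.8% of the initiation factor genes against 71.0% of tested genes, CCGGAA, the ETS core, for 50.0% against 34.9%, and TATAAA for 8.33% against 8.35%. Of the 4 called genes with a promoter, 3 held a GC box, 2 an ETS core and 1 TATAAA. A match of letters is a description and no evidence of binding.

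Many mRNAs of the translation machinery begin with an unbroken run of pyrimidines, the TOP element, through which mTOR controls their use. A run of at least 5 C or T from the RefSeq start base occurred for 2 of 36 initiation factor genes (5.56%), against 5.19% of tested genes. This takes the listed start base as exact, so a run beginning a few bases away was not counted. Those 2 were Eif3f and Eif2s3x, which are also 2 of the 4 called genes with a promoter. Neither passed after median-of-ratios scaling. The share with such a run among all genes called lower was not counted, and a link between runs and calls was not tested. Their starts are shown from 10 bases before the start base, with the run of 11 pyrimidines in capitals.
Eif3f, chr7:108934405-108934434, plus strand: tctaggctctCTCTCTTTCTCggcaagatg
Eif2s3x, chrX:94212632-94212661, minus strand: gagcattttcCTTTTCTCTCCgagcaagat

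Among the factors that select the start codon, Eif1b fell, and its near relative Eif1 did not pass. Eif1b (ENSMUSG00000006941.5, chromosome 9, 120492232 to 120495330, build mm10), a paralog of the start-codon fidelity factor Eif1, was at 31.5, 27.9, 26.7 and 27.2 TPM in obese replicates 1 to 4 and at 21.9, 20.4, 23.4 and 24.9 TPM in weight-cycled replicates 1 to 4. Every weight-cycled library was below every obese one. The log2 fold change was -0.31 (SE 0.0941, limma adjusted p = 0.0414), and it turned to 0.0088 after median-of-ratios scaling. Eif1 read 183, 189, 170.1 and 164 TPM in obese and 162, 134, 157 and 160.1 TPM in weight-cycled libraries, also without overlap, with a log2 fold change of -0.21 (limma adjusted p = 0.098). Other genes hold 23.0% of its stretches of 31 bases, so part of its reads were split by estimate. The log2 ratio of Eif1 to Eif1b within a library, which a common scaling factor hardly moves, was 2.60 ± 0.0923 in obese and 2.70 ± 0.0887 in weight-cycled libraries (SD, n = 4 each; exact permutation test over 70 assignments, two-sided, p = 0.171). Eif1a and Eif1ax, which encode forms of eIF1A, had log2 fold changes of -0.18 and -0.18 and did not pass (limma adjusted p = 0.178 and 0.345). Their ratio differed by -0.00085 (exact permutation p = 1). The 5 genes of this group summed to 226 ± 13.7 TPM (obese) and 194 ± 15.1 TPM (weight-cycled; SD, n = 4 each), mostly Eif1, and the groups did not overlap.

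Of the 3 eIF2 subunit genes, Eif2s3x, the X-linked gene of the subunit that binds GTP and the tRNA, fell. Eif2s3x (ENSMUSG00000035150.15, chromosome X, 94188707 to 94212862) was at 16.1, 14.8, 14.9 and 13.4 TPM in obese replicates 1 to 4. Weight-cycled replicates 1 to 4 gave 14.3, 10.0, 10.9 and 8.87 TPM. Replicate 1 lay within the obese range and the other 3 below it. Its log2 fold change was -0.41 (SE 0.129, limma adjusted p = 0.0437), or -0.10 after scaling (limma adjusted p = 0.424). Sequence stretches of 31 bases that other genes also hold make up 35.3% of its transcripts, so its level too rests in part on such a split. Eif2s2, the beta subunit, averaged 14.6 ± 0.661 TPM (obese) and 12.7 ± 1.68 TPM (weight-cycled; SD, n = 4 each; limma adjusted p = 0.139). Eif2s1, the alpha subunit that stress kinases phosphorylate, had a log2 fold change of -0.096 (limma adjusted p = 0.526).

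The exchange factor eIF2B has 5 subunits, and 1 of their genes fell. Eif2b3 (ENSMUSG00000028683.14, chromosome 4, 117019402 to 117087306), which encodes the gamma subunit, was at 3.69, 4.10, 3.45 and 2.91 TPM in obese and 2.57, 2.13, 2.83 and 2.63 TPM in weight-cycled replicates 1 to 4, with no overlap. The log2 fold change was -0.35 (SE 0.116, limma adjusted p = 0.0459), and -0.11 after scaling (limma adjusted p = 0.396). Eif2b2, the beta subunit and the most abundant with 17.1 ± 2.73 TPM (obese) and 17.1 ± 1.95 TPM (weight-cycled; SD, n = 4 each), had a log2 fold change of 0.0011 (limma adjusted p = 0.996). Eif2b1, Eif2b4 and Eif2b5, the catalytic epsilon subunit, lay at -0.29, -0.089 and -0.23. Outside eIF2, Eif2a and Eif2d, which encode other factors able to deliver tRNA to the ribosome, were at -0.14 and -0.079 and did not pass (limma adjusted p = 0.246 and 0.494).

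Within eIF3, of 14 genes, Eif3f fell, 0 rose and 13 did not pass. That is 7.14% lower, beside 23.9% of all tested genes. Fold changes ran from -0.51 for Eif3c to 0.20 for Eif3i, beside -1.76 to 2.90 over all tested genes. Whether eIF3 genes spread more than other genes was not tested. Eif3f (ENSMUSG00000031029.6, chromosome 7, 108934417 to 108942951), a core subunit whose start held both an E-box and a pyrimidine run, was at 21.3, 23.1, 21.3 and 19.8 TPM in obese replicates 1 to 4. In weight-cycled replicates 1 to 4 it was at 20.4, 14.97, 16.3 and 13.6 TPM. Replicate 1 again lay inside the obese range, and the rest below it. The log2 fold change was -0.38 (SE 0.118, limma adjusted p = 0.0423). Without replicate 1 it was -0.49, and after scaling -0.067 (limma adjusted p = 0.6).

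Eif3a, Eif3b and Eif3c, which encode the large subunits that scaffold the complex, had lower values in weight-cycled replicates 2 to 4 but not in replicate 1. Eif3a was at 13.2, 12.3, 10.6 and 9.59 TPM in obese and 13.6, 6.35, 7.64 and 5.77 TPM in weight-cycled replicates 1 to 4. Its weight-cycled replicate 1 was the highest of all 8 libraries. With all libraries Eif3a, Eif3b and Eif3c lay at -0.47, -0.36 and -0.51 (limma adjusted p = 0.0904, 0.0554 and 0.0554). Without weight-cycled replicate 1 they lay at -0.71, -0.46 and -0.69, each past the threshold, where 54.4% of all tested genes were lower. With scaling as well, Eif3a and Eif3c passed and Eif3b did not (limma adjusted p = 0.0131, 0.0356 and 0.45). Length removal instead gave the same split (limma adjusted p = 0.0215, 0.0362 and 0.166). These 3, and Eif3i and Eif3m below, were picked after their values were seen.

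Eif3h, Eif3i and Eif3m were the 3 eIF3 genes with fold changes above 0. Eif3i, which encodes a WD-repeat subunit, was at 45.3, 47.4, 49.8 and 46.4 TPM in obese and 46.5, 54.6, 53.6 and 64.8 TPM in weight-cycled replicates 1 to 4. Eif3m, a core subunit, read 45.8, 49.9, 46.4 and 44.1 TPM and 46.2, 51.7, 54.3 and 57.9 TPM in the same order. In both, weight-cycled replicates 2 to 4 exceeded every obese library and replicate 1 did not. Their log2 fold changes of 0.20 and 0.17 did not pass with all libraries (limma adjusted p = 0.128 and 0.157) or after scaling (0.53 and 0.49, limma adjusted p = 0.0862 and 0.0738). They passed without weight-cycled replicate 1, at 0.28 and 0.23, where 3.35% of all tested genes were higher. Stretches that other genes hold make up 26.2% of Eif3m and 29.4% of Eif3h, mostly shared with Gm7658 and AC122253.2 in that order, and 2.58% of Eif3i. Eif3h, the most abundant eIF3 transcript, averaged 91.3 ± 7.52 TPM (obese) and 97.5 ± 5.63 TPM (weight-cycled; SD, n = 4 each; limma adjusted p = 0.389).

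Of the other subunits, Eif3e came closest to a call. It was at 33.6, 33.8, 35.2 and 31.6 TPM in obese and 31.4, 26.7, 28.7 and 28.1 TPM in weight-cycled replicates 1 to 4, the latter all lower by a narrow margin (-0.22, limma adjusted p = 0.0694). Eif3g, an RNA-binding subunit, lay at -0.22, Eif3d, which can itself hold the cap of some mRNAs, at -0.15, Eif3l at -0.17 and Eif3k at -0.051, with limma adjusted p from 0.0975 to 0.6.

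**Figure D3:**
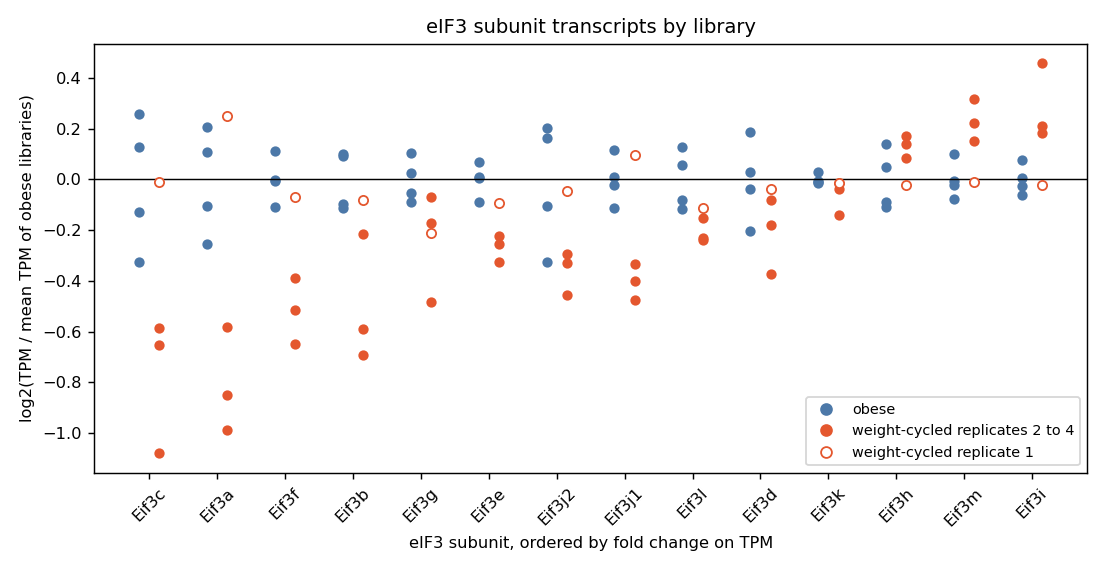
Log2 of TPM over the mean of the obese libraries for the 14 eIF3 subunit genes, ordered by fold change; points are libraries and open circles weight-cycled replicate 1. Filled weight-cycled points lie below the obese ones for Eif3c, Eif3a, Eif3f and Eif3b at the left and above them for Eif3m and Eif3i at the right, while the open circle lies among the obese points in each of these except Eif3a, where it is above them.

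The eIF3 complex holds its core subunits in equal numbers, so each gene's share of the summed eIF3 transcripts was also taken, a value that scaling a library does not change. The sum itself was 413 ± 17.8 TPM (obese) and 400.4 ± 13.2 TPM (weight-cycled; SD, n = 4 each), with overlap. Eif3f took 5.17% ± 0.134 of it in obese and 4.08% ± 0.744 in weight-cycled libraries, and Eif3e, another core subunit, 8.13% ± 0.219 and 7.18% ± 0.467 (SD, n = 4 each). Those were the 2 of 14 shares whose groups did not overlap, both lower, though for Eif3f by the narrowest margin, with 5.067% in both the highest weight-cycled and the lowest obese library. Shares taken in the same way within other complexes also held ones without overlap, Eif4h lower and Eif4e2 higher. No such shares were taken for other genes, so the count has no background to stand beside. Eif3i took 11.4% ± 0.504 and 13.7% ± 1.65, and Eif3m 11.3% ± 0.246 and 13.1% ± 1.10, with overlap through weight-cycled replicate 1. Eif3k held 14.7% ± 0.640 and 14.6% ± 0.652. No test was made of these shares, and a relation with transcript length within a library can still move them. With that relation removed, the log2 fold changes of Eif3f and Eif3e were -0.098 and -0.015 (limma adjusted p = 0.414 and 0.899). Eif3j1 and Eif3j2, copies of the loosely bound subunit, are near-identical: 94.9% of the stretches of 31 bases of Eif3j2 occur in another gene, so their split at -0.18 and -0.21 is uncertain.

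The cap-binding group held the factor with the smallest p of all 45, Eif4e3. Eif4e3 (ENSMUSG00000093661.1, chromosome 6, 99625135 to 99666771), an eIF4E relative that binds the cap weakly, was at 5.54, 5.30, 4.94 and 4.82 TPM in obese and 4.04, 3.10, 3.62 and 4.03 TPM in weight-cycled replicates 1 to 4. Every weight-cycled library lay below every obese one. The log2 fold change was -0.39 (SE 0.105, limma adjusted p = 0.0353), and -0.12 after scaling (limma adjusted p = 0.282). Eif4e, the main cap-binding protein gene, read 27.4, 28.1, 22.5 and 24.4 TPM in obese and 18.9, 19.4, 21.9 and 23.1 TPM in weight-cycled libraries. It overlapped slightly and missed the threshold, at -0.28 (limma adjusted p = 0.056).

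Eif4e2 encodes a homolog that binds the cap without eIF4G and so represses translation. Its values were 5.68, 5.74, 4.99 and 4.99 TPM in obese and 5.40, 5.40, 5.54 and 5.48 TPM in weight-cycled replicates 1 to 4, or 0.026 on the log2 scale (SE 0.0928, limma adjusted p = 0.83). The log2 ratio of Eif4e to Eif4e2 was 2.06 ± 0.0611 in obese and 1.75 ± 0.119 in weight-cycled libraries (SD, n = 4 each), lower in all 4 weight-cycled libraries than in any obese one. That difference of -0.31 had an exact permutation p of 0.0286, the smallest the design allows, and 0.257 adjusted over the 9 pairs compared. Weight-cycled replicate 1 had the lowest ratio, 1.64, so here it lay farthest from the obese libraries. Leaving out single libraries gave differences of -0.36 to -0.27, with an exact permutation p of 0.0571 without obese replicate 1, 2 or 4.

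**Figure D4:**
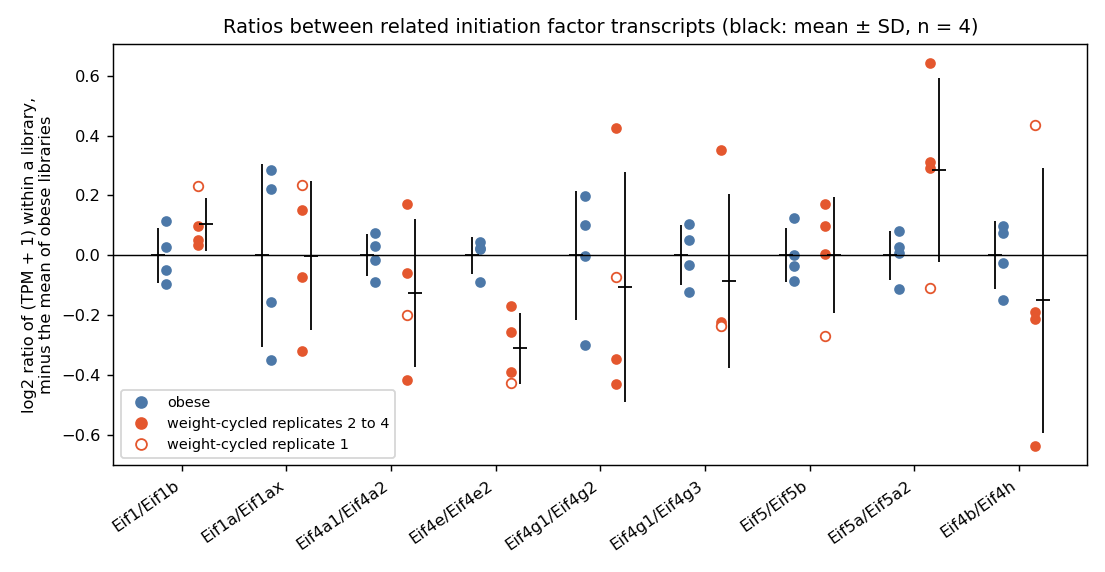
Log2 ratios of TPM + 1 between 9 pairs of initiation factor genes within each library, minus the mean of the obese libraries; black marks give the mean and SD of each group (n = 4). Eif4e to Eif4e2 is the pair whose groups do not overlap, with a difference of -0.31.

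None of the 3 scaffold genes passed with all libraries. Eif4g1, the main scaffold that joins eIF4E and the helicase eIF4A, was at 6.51, 8.94, 6.82 and 5.89 TPM in obese and 7.02, 2.63, 3.52 and 5.29 TPM in weight-cycled replicates 1 to 4. Eif4g2, which encodes a scaffold that lacks the eIF4E site, read 62.1, 58.2, 48.8 and 46.1 TPM and 56.6, 32.4, 38.3 and 30.99 TPM. For Eif4g3, a second full scaffold, the values were 2.03, 2.55, 1.96 and 1.37 TPM and 2.49, 0.569, 0.971 and 0.823 TPM. In each, weight-cycled replicate 1 lay within the obese range and replicates 2 to 4 below it. Fold changes of -0.57, -0.46 and -0.48 did not pass (limma adjusted p = 0.0633, 0.0597 and 0.0992), but did without that library, at -0.76, -0.65 and -0.73. Without it, 54.4% of all tested genes were lower. With scaling as well, Eif4g2 and Eif4g3 passed and Eif4g1 did not (limma adjusted p = 0.0418, 0.00865 and 0.0689). With length removed instead, Eif4g2 passed and Eif4g3 and Eif4g1 did not (limma adjusted p = 0.0114, 0.0861 and 0.112). The ratios of Eif4g1 to Eif4g2 and to Eif4g3 differed by -0.11 and -0.085 (exact permutation p = 0.657 and 0.571).

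Of the helicase and its cofactors, Eif4h fell. Eif4h (ENSMUSG00000040731.13, chromosome 5, 134619721 to 134639490), an RNA-binding stimulator of the helicase, was at 14.5, 14.2, 12.5 and 12.6 TPM in obese and 11.9, 9.29, 10.8 and 9.85 TPM in weight-cycled replicates 1 to 4. The groups did not overlap. Its log2 fold change was -0.34 (SE 0.101, limma adjusted p = 0.0409), and -0.033 after scaling (limma adjusted p = 0.749). Eif4b, the related cofactor, had 21.9, 21.1, 17.3 and 15.9 TPM in obese and 23.1, 11.5, 13.0 and 8.61 TPM in weight-cycled libraries. Its highest and lowest libraries were both weight-cycled, replicates 1 and 4, and it did not pass at -0.49 (SE 0.226, limma adjusted p = 0.104). The helicase gene Eif4a1 averaged 57.1 ± 3.17 TPM (obese) and 49.8 ± 7.77 TPM (weight-cycled; SD, n = 4 each; limma adjusted p = 0.154). Its paralog Eif4a2 was at 208 ± 14.1 and 196 ± 4.80 TPM (limma adjusted p = 0.44), and stretches shared with other genes make up 31.1% of Eif4a1 and 14.9% of Eif4a2. Their ratio differed by -0.13, and that of Eif4b to Eif4h by -0.15 (exact permutation p = 0.4 and 0.571). Eif4a3, a like-named helicase gene of the exon junction complex, was at -0.27 (limma adjusted p = 0.0756).

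None of the 5 genes of the last steps passed. Eif5, which triggers GTP hydrolysis by eIF2, was at 26.01, 24.9, 22.9 and 23.6 TPM in obese and 25.6, 18.5, 18.8 and 18.1 TPM in weight-cycled replicates 1 to 4. Eif5b, the GTPase that joins the large subunit, read 2.27, 2.34, 1.97 and 1.73 TPM and 2.88, 1.09, 1.24 and 1.31 TPM. For both, weight-cycled replicate 1 was among or above the obese libraries and the other 3 were below all of them. Their log2 fold changes were -0.27 and -0.27 (limma adjusted p = 0.0862 and 0.235), and -0.38 and -0.47 without that library. Both then passed, where 54.4% of all tested genes were lower. With scaling as well, Eif5 lay at 0.0105 and Eif5b at -0.22 (limma adjusted p = 0.923 and 0.0351). With length removed instead they lay at -0.057 and 0.092 (limma adjusted p = 0.537 and 0.346). The ratio of Eif5 to Eif5b differed by 0.0017 (exact permutation p = 0.971).

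Eif5a encodes the hypusine-bearing factor that helps ribosomes past difficult peptide bonds and is known to matter for beta-cell translation. It was at 150.5, 145, 149.9 and 144 TPM in obese and 126, 136, 156 and 169 TPM in weight-cycled replicates 1 to 4, or -0.017 on the log2 scale (SE 0.101, limma adjusted p = 0.898). Weight-cycled libraries spread on both sides of the obese ones. Its paralog Eif5a2, near the limit of 1 TPM, lay at 1.25 ± 0.168 and 0.832 ± 0.196 TPM (SD, n = 4 each), without overlap, at -0.30 (limma adjusted p = 0.0611). The ratio of Eif5a to Eif5a2 differed by 0.28 (exact permutation p = 0.114, or 0.514 adjusted over the 9 pairs). Without weight-cycled replicate 1 it differed by 0.42 (exact permutation p = 0.0286). That p came from fewer than 70 assignments and was not adjusted over the pairs. Eif6, which keeps the ribosomal subunits apart until joining, was at 14.4 ± 1.19 and 13.3 ± 0.795 TPM (limma adjusted p = 0.35).

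Regulators and partners of these factors were taken from a list of 56 genes, of which 55 matched a symbol (Gcn1 did not) and 48 had a mean of at least 1 TPM. On TPM, 7 were lower, 1 was higher and 40 did not pass, 14.6% lower against 23.9% of all tested genes. The median log2 fold change was -0.28. After scaling, 0 were lower and 1 was higher: Paip2b, which was named for that call after its values were seen. It represses the poly(A)-binding protein and lay at 0.41 after scaling (limma adjusted p = 0.0411) and 0.097 before (limma adjusted p = 0.45). None of the 6 measured genes of the eIF2 kinases and phosphatase passed on TPM (limma, 2 lower at an unadjusted p under 0.05). Of the 7 measured genes of eIF4E binding and cap control, Cyfip1 fell and 6 did not pass. None of the 7 measured genes of the mTOR and S6 kinase arm passed (3 lower at an unadjusted p under 0.05). Over all tested genes, 46.5% were lower at an unadjusted p under 0.05.

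Impact, an inhibitor of the eIF2 kinase GCN2, had the largest fall of the list. It was at 7.26, 6.48, 5.05 and 3.53 TPM in obese and 3.48, 2.27, 3.06 and 1.87 TPM in weight-cycled replicates 1 to 4, just without overlap. The log2 fold change was -0.83 (SE 0.194, limma adjusted p = 0.0322), and -0.57 after scaling (limma adjusted p = 0.0656). Ddx3x, a helicase for structured leader sequences, was at -0.69, Paip1, a stimulator of the poly(A)-binding protein, at -0.46, and Cyfip1, an eIF4E-binding partner of FMRP, at -0.42. Eefsec, the selenocysteine elongation factor gene, lay at -0.59, Mtif2, the mitochondrial initiation factor gene, at -0.41, and Denr, a factor for reinitiation, at -0.25, which turned to 0.065 after scaling. Limma adjusted p was 0.0335 to 0.0459 for these 6, and 0.0731 to 0.66 after scaling. In the other direction Eef1b2, the exchange factor gene for elongation factor eEF1A, was at 213, 245, 251 and 222 TPM in obese and 248, 305, 290.2 and 362 TPM in weight-cycled replicates 1 to 4. It rose by 0.36 on the log2 scale (SE 0.117, limma adjusted p = 0.045), with weight-cycled replicate 1 inside the obese range, and did not pass after scaling (0.69, limma adjusted p = 0.07).

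The initiation factor genes shared with all genes a relation between fold change and transcript length. Across the 45 genes, Spearman's rho between log2 fold change and length was -0.34 (Pearson's r -0.36 with log2 length), and across 8123 tested genes with a length it was -0.37. Genes are not independent replicates and share their libraries, so these are descriptions. The 10 factors under 1000 bases had a median of -0.15 and the 13 of 2500 bases or more one of -0.34, beside -0.14 and -0.35 over all tested genes of those lengths. Eif3i and Eif3m, at 928.5 and 817 bases, lay above the median of their length range, and Eif4g2, at 752.5 bases and -0.46, below it. Length here is the median of a gene's annotated protein-coding transcripts, and the 14 transcripts of Eif4g2 reach 7995 bases, so its place among short genes is uncertain. With the trend removed, Eif3i and Eif3m stood at 0.35 and 0.31 (limma adjusted p = 0.0955 and 0.078) and Eif4g2 at -0.32 (limma adjusted p = 0.202).

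**Figure D5:**
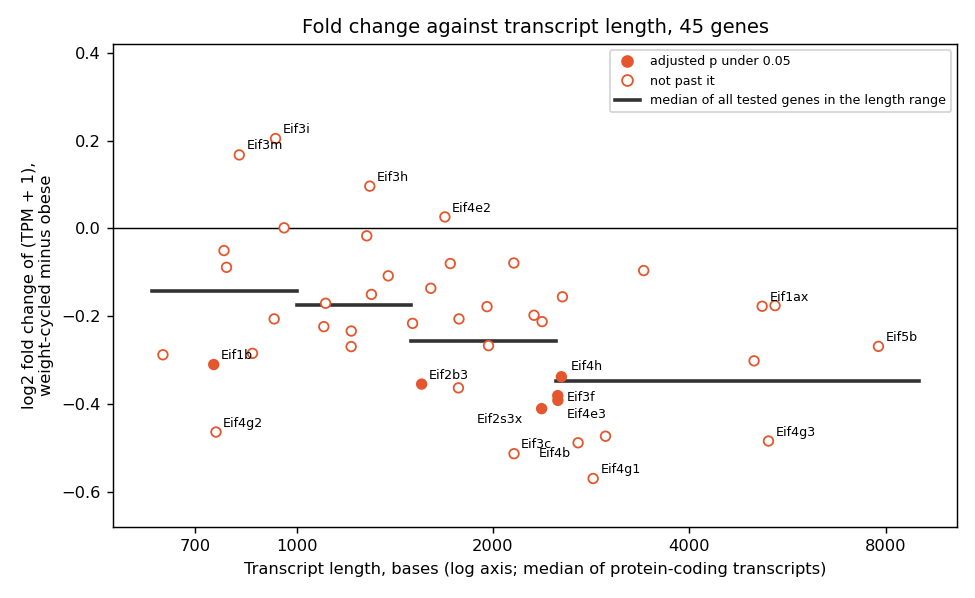
Log2 fold change of the 45 initiation factor genes against transcript length on a log axis, filled where limma's adjusted p was under 0.05; dark lines give the median of all tested genes in 4 length ranges. The lines step down from -0.14 to -0.35 and the points follow them, with Eif3i and Eif3m above and Eif4g2 below at the short end.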

How the data were processed

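The deposited TPM per gene came from Salmon 1.5.2 with build mm10, per the submitters' processing notes. Which annotation was used, and how transcripts were summed to genes, is not given in the sources used here. Reads shared by near-identical copies are split by Salmon's estimate, so shares of 31-base stretches found in other genes were counted. Library totals were 999930 to 999949 TPM, which keeps no depth, so no counting interval or count test was used. Symbols matched 35527 of 35596 gene IDs (99.8%), with 69 unmatched. GENCODE M21 (GRCm38, that is mm10) gave coordinates and transcript lengths (median of a gene's protein-coding transcripts).

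Genes with a mean of at least 1 TPM were fitted with limma 3.58.1 in R 4.3.3 (eBayes with trend) on log2(TPM + 1). Tests were two-sided, and p was adjusted by Benjamini-Hochberg over all tested genes. Fold changes are on that scale and understate changes of low genes. Ratios of 9 gene pairs used exact permutation over 70 assignments, or fewer where a library was left out. The fit was tested on simulated data. Named genes were those called, the most abundant and smallest-p gene of each complex, the gene pairs and the called regulators. Further genes with values were chosen after those were seen. Members, lists and length removal (loess, span 0.5) were chosen with earlier results of these data known. Alternatives were pseudocounts of 0.1 and 5, no filter, a filter at 5 TPM, both scalings, length removal, robust variance, a replicate block, each library left out in turn, and a threshold of 0.1. Combinations of scaling or length removal with a left-out library or the block were added after the data were seen.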

Additional observations from a re-analysis of the deposited data

Results flagged for a closer look

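Among 112 groups of 4 values, 6 held a library far from the other 3 by Dixon's ratio, where chance gives about 5.6. Weight-cycled replicate 1 was high for Eif5 (25.6 TPM against 18.1 to 18.8), for Eif5b (2.88 TPM against 1.09 to 1.31) and so for their sum (28.5 TPM against 19.4 to 20.0). Eif1 was low in weight-cycled replicate 2 (134 TPM against 157 to 162). The log2 ratio of Eif4g1 to Eif4g3 was high in weight-cycled replicate 4 (1.79 against 1.20 to 1.21). Denr read 18.3 TPM in weight-cycled replicate 3, beside 18.66 to 18.68 TPM for the rest of that group, a small gap in a tight group.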

How the results depend on the processing

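The number of initiation factor genes called lower, 6 on TPM, was 0 without the filter, with median-of-ratios scaling, with quantile scaling and with the length trend removed, 4 at a minimum of 5 TPM, and 21 at a threshold of 0.1. The 4 were among 36 factors then tested (11.1%, beside 28.8% of tested genes). At 0.1, the 21 of 45 stood beside 3753 of 8127 tested genes. Leaving out single libraries gave 0 to 22 lower and 0 to 2 higher: 0 lower on leaving out any of obese replicates 1 to 3 or weight-cycled replicates 2 to 4, 7 without obese replicate 4, and 22 without weight-cycled replicate 1. Those 7 and 22 were 15.6% and 48.9% of the factors, beside 20.6% and 54.4% of all tested genes. The added repeats of scaled and length-corrected fits without single libraries gave 0 higher and 0 lower except without weight-cycled replicate 1, where scaling gave 11 higher and 6 lower and length removal 7 higher and 4 lower. The median of the factors, -0.21, became 0.081 with median-of-ratios scaling, -0.031 with quantile scaling and 0.017 with length removed, and -0.26 to -0.17 without single libraries.

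Of all tested genes, 98 were higher and 1946 lower on TPM. The higher count was 0 without the filter, 173 with quantile scaling and 210 at a threshold of 0.1, and 0 to 270 without single libraries. The lower count was 0 without the filter, 1001 at a minimum of 5 TPM, 46 with median-of-ratios scaling, 124 with quantile scaling, 124 with length removed and 3753 at 0.1, and 0 to 4390 without single libraries. Regulators and partners had 1 higher and 7 lower. The higher count was 0 without the filter or with quantile scaling. The lower count was 0 without the filter, with either scaling or with length removed and 24 at 0.1, with 0 to 1 higher and 0 to 32 lower without single libraries. The cause of these changes was not tested. Eif1b and Denr turned to 0.0088 and 0.065 with median-of-ratios scaling. Over the other alternatives for single named genes, 430 values stayed on the same side of the threshold, 141 lost the call and 12 gained one. Only genes called on TPM could lose a call, so the 430 include genes that were not called and stayed so. They are therefore no measure of how stable the calls were. Sequencing depth is unknown, so what it limits cannot be given.

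The labels do not say whether replicate numbers pair these libraries. Same-numbered libraries correlated at 0.21, -0.28, -0.05 and 0.23 in their deviations, and 2 of 4 correlated best with their own number. These 4 values cannot settle whether the numbers pair the libraries, so the block was kept as an alternative only. With the replicate block, 11 factors (24.4%), 12 regulators and 2754 of all tested genes (33.9%) were lower, and 149 of all tested genes and 0 factors higher. The block with median-of-ratios scaling gave 2 factors higher (4.44%, beside 4.39% of tested genes), Eif3i and Eif3m, and 0 lower, and with length removed 0 lower.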
